A study of Culex quinquefasciatus with 7 samples.

Results

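Among the transcripts that were abundant in whole females of Culex quinquefasciatus, the southern house mosquito, at emergence from the pupa, 161 were moderately lower at 72 h. Their fall lay between 2-fold and 4-fold on the scale of FPKM + 1. These moderate decliners were selected on measured values: at least 50 FPKM (sequenced fragments corrected for gene length and for the size of the library) in the library taken 2 h after eclosion, and a difference in log2(FPKM + 1) between the 2 h and 72 h libraries of at least 1 and below 2. They make up 17.6% of the 914 genes with at least 50 FPKM at 2 h and 0.793% of the 20305 genes in the deposited table. The study sequenced messenger RNA from adult females at 2, 12, 24, 36, 48, 60 and 72 h after eclosion. Each time is 1 library from a pool of 200 whole females, and all animals were reared in a light-dark cycle of 12 h each, with no treatment named in the labels. No time has a replicate, so a difference between a pair of times is a difference between 2 libraries and is given by size, with no test.

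The first days of adult life in a female mosquito are a period of maturation rather than growth. The new cuticle hardens and darkens, larval and pupal tissue that was carried into the adult is broken down, the flight muscle and midgut take on their adult state, and juvenile hormone prepares the fat body and ovary for the first blood meal. Transcripts that serve the last steps of metamorphosis give way to those of the mature female in this period. The genes in the deposited table carry only identifiers that start with CPIJ, and the reference table used here, with 18458 genes, matched 0 of them. No gene name, function, position or sequence is therefore given, the named gene lists could not be built, and the tissue label was not checked against markers.

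The deposited values shifted between libraries as a whole. Over the 2761 genes that reached 10 FPKM in all 7 libraries, the median ratio to the geometric mean was lowest at 2 h (0.772) and highest at 72 h (1.15), a log2 shift of 0.57. After division by these ratios the members' difference between 2 and 72 h, with a median of 1.38 in the deposited values, had a median of 1.95 and ran from 1.57 to 2.56. From 12 to 60 h the same ratios shifted by 0.16. Depth, read from the steps in values under 0.3 FPKM, lay between 0.744 (60 h) and 1.19 (72 h) of that of the 2 h library, and its absolute size is unknown. No member was at 0 in any library, and the lowest member value anywhere was 11.3 FPKM.

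As a group the members held 14.9% of the FPKM sum of the 2 h library and 14.5% of that of the 12 h library. In the 5 later libraries, in order of time, their share was 11.1%, 7.70%, 6.11%, 5.46% and 4.70%. The end points of this course follow from the selection. The 12 h share was not set by the selection. With the end points fixed, however, a 12 h share near that at 2 h places most of the decline in later steps. From 2 to 12 h the 10 members most abundant at 2 h went from 6.03% to 6.46%, and the other members from 8.89% to 8.03%. In whole-animal RNA, fewer cells of a type and less RNA per cell cannot be told apart, and FPKM is relative to the rest of the library, so it does not give an amount per female. The weight was uneven: the 10 members that were most abundant at 2 h held 6.03% of that library and 1.76% of the 72 h library. At 2 h, 54 members were under 100 FPKM. The median over members was, in order of time, 155, 125, 103, 78.5, 68.5, 63.5 and 59.4 FPKM.

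**Figure D1:**
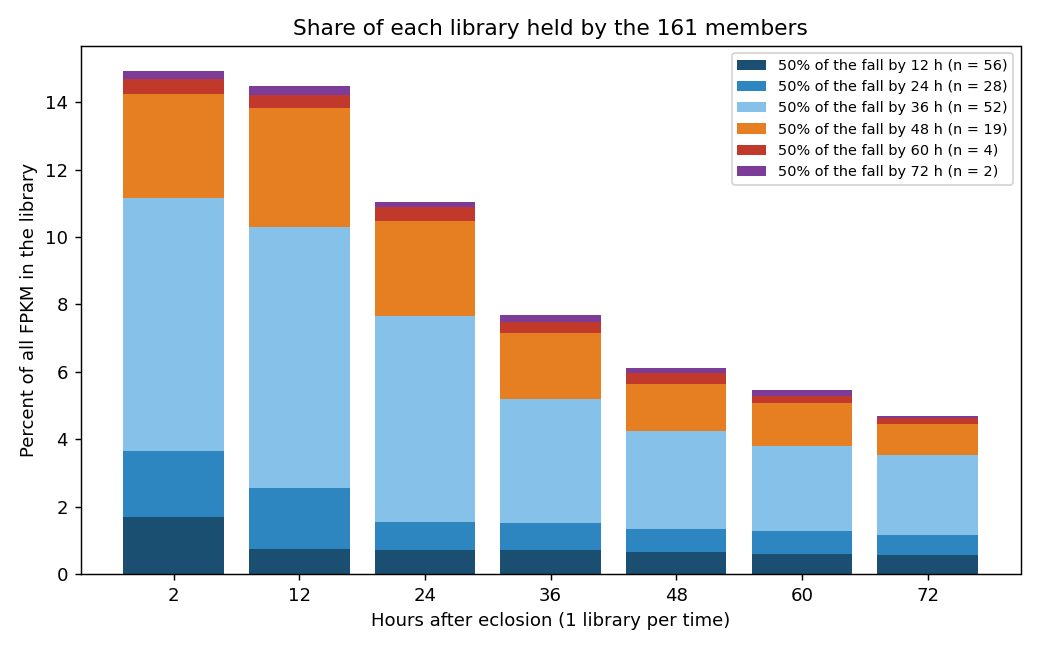
Percent of the FPKM sum of each of the 7 libraries held by the 161 members, by hours after eclosion, with colours for the time by which a member had covered 50% of its log2 difference between 2 and 72 h. The total starts at 14.9%, stands at 14.5% in the second library and ends at 4.70%, and the 52 members of the 36 h class are the largest block in every library.

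In the deposited values the 2 members with the highest levels at emergence stayed near them for a day. The ratio used for rescaling was 0.772 at 2 h and 1.08 at 24 h, so rescaling places their 24 h values lower relative to 2 h. CPIJ008101 had 6351, 7722 and 6954 FPKM in the libraries of the first day (2, 12 and 24 h), then 3720, 2827, 2460 and 1974 FPKM in those from 36 to 72 h. CPIJ006209 had 5599, 5542 and 4837 FPKM in the first day, then 1872, 1614, 1349 and 1699 FPKM. In both genes the 3 earliest libraries were all higher than the 4 later ones, and the widest step lay between 24 and 36 h. The order of the 2 h and 72 h values follows from the selection.

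The members differed in the time at which they became lower. For each member the part of its own 2 h to 72 h difference that it had covered was computed at every time on the log2 scale. In the libraries from 12 to 60 h the median part was 24.2%, 48.1%, 80.02%, 87.6% and 100.2%. The spread was wide at first: at 12 h the interquartile range over members ran from -4.25% to 68.2%, where a negative value means a level above that at 2 h. By the first time at which 50% was covered, 56 members belonged to 12 h, 28 to 24 h, 52 to 36 h, 19 to 48 h, 4 to 60 h and 2 to 72 h. After rescaling, 130 of the 161 members stayed in their class. The counts were then 52, 46, 51, 10, 1 and 1, so members moved mostly into the 24 h class.

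The 56 members of the 12 h class, chosen for their 12 h value, had a median change from 2 h of -1.08 on the log2 scale in that library and of -1.38 at 72 h. Their median was 99.9 FPKM at emergence and 38.1 FPKM in the next library, and it lay between 30.6 and 40.5 FPKM in the 5 later libraries. The 28 members of the 24 h class had medians of 145, 108 and 70.9 FPKM over the first 3 libraries and 50.5 FPKM in the last. The 52 members of the 36 h class were more abundant, with medians of 342, 338, 261 and 162 FPKM over the first 4 libraries and 124 FPKM in the last. The 19 members of the 48 h class started with medians of 419, 416, 280, 229 and 183 FPKM over the first 5 libraries and ended at 115 FPKM. Median abundance at emergence thus differed by class, but the classes overlapped: the 12 h class ran from 51.3 to 566 FPKM at 2 h and the 36 h class from 50.9 to 5599 FPKM. Of the 56 members of the 12 h class, 7 were back above the 50% level at 24 h, and 9 were so at any later time. Every member stands at 100% at 72 h by construction, so the selection excluded a lasting return.

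**Figure D2:**
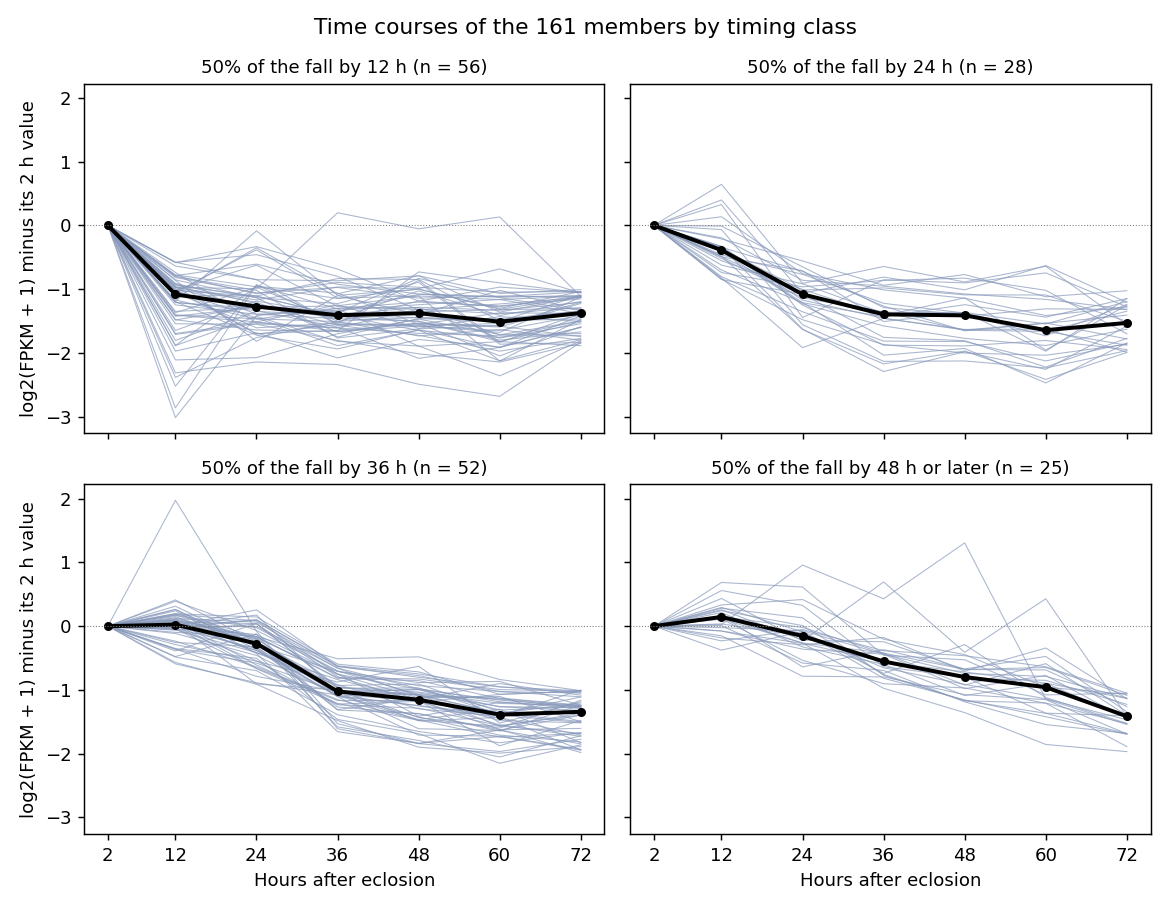
Change in log2(FPKM + 1) from each member's own 2 h value against hours after eclosion, 1 thin line per member and the class median in black, with the classes of 48 h and later drawn together (n = 25). The medians of the 12 h and 24 h classes both reach -1.08 at the time that names the class, while the median of the 36 h class is near 0 at 12 h and reaches -1.02 at 36 h.

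From 2 to 12 h, 35 of the 161 members were at least 2-fold lower and 1 was at least 2-fold higher. Among all 6764 genes that reached 5 FPKM in one or both libraries the shares were 6.22% lower and 11.2% higher, but the 2 h library chose the members, so the excess of lower genes says nothing about them. After rescaling 55 members (34.2%) were at least 2-fold lower, against 8.92% of 7253 genes and 23.7% of those of at least 50 FPKM at 2 h. The largest downward step was that of CPIJ010034, with 132 FPKM at emergence, 15.4 FPKM in the 12 h library, and 48.8, 52.9, 53.3, 39.4 and 46.1 FPKM in the later ones. CPIJ009074 was close behind, with 138, 18.1 and 71.6 FPKM over the first 3 libraries, then 55.2, 36.4, 38.3 and 36.6 FPKM. In both genes the 12 h library was the lowest of all 7, and the values from 24 h on lay between those at 12 and 2 h. Of the 35 members that were lower at 12 h, 29 had a 60 h value within 2-fold of that at 12 h. Another 3 lay higher and 3 lower by 2-fold or more. Their medians were 105, 32.3 and 30.1 FPKM in the libraries of 2, 12 and 60 h. These genes were picked for a low 12 h value, and the selection limits their 72 h value. Both choices hold the later level near that at 12 h, so the count is not a separate result about them.

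Other members were higher at 12 h than at emergence. A value above that of emergence was seen in 51 members at 12 h, in 16 at 24 h and in 3 at 36 h. The highest of the 7 values came from the 2 h library in 105 members, the 12 h library in 46, the 24 h library in 7, the 36 h library in 2 and the 48 h library in 1. These peaks were low: in 5 members the highest value was at least 1.5-fold above that at 2 h, and in 2 at least 2-fold. After rescaling, 144 members were highest in the 2 h library and 15 in the 12 h library, so the number of such peaks depended on the scaling.

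CPIJ009327 had the largest upward step from 2 to 12 h. In order of time it stood at 199, 784, 188, 68.2, 54.8, 63.5 and 74.9 FPKM. That step rests on the 12 h library alone, and the gene also had the largest difference of any member from 12 to 24 h (log2 -2.05). The next largest was that of CPIJ005295, with 84.9, 137 and 130 FPKM over the first 3 libraries, followed by 61.5, 58.6, 39.6 and 40.4 FPKM.

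**Figure D3:**
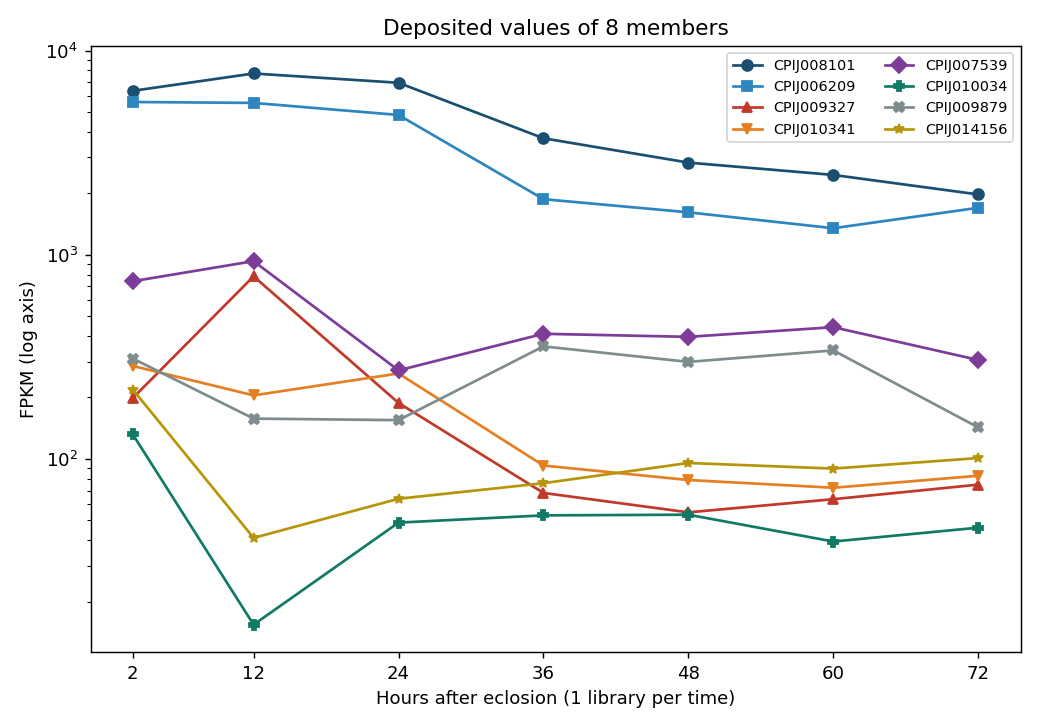
FPKM on a log axis against hours after eclosion for 8 members, 1 point per library. In these deposited values CPIJ008101 and CPIJ006209 stay near their 2 h level to 24 h, and CPIJ009327 peaks at 784 FPKM in the 12 h library. CPIJ010034 has its lowest value of 15.4 FPKM at 12 h, and CPIJ009879 returns to 356 FPKM at 36 h.

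From 12 to 24 h, 8 members were at least 2-fold lower and 4 at least 2-fold higher, against 3.99% and 9.53% of 7578 genes tested. The 8 members are 4.97% of the group and the 4 are 2.48%. Genes of at least 50 FPKM at 2 h, whatever their later course, were lower in 13.6% and higher in 4.52% of 907 cases, both above the members' shares. The median member changed by -0.27 on the log2 scale, while the median of all genes tested was 0.30. Rescaling put the number of lower members at 17 (10.6%), against 6.33% of 7506 genes and 17.8% of those of at least 50 FPKM at 2 h. Next to CPIJ009327 the largest downward step was that of CPIJ007539, from 930 to 272 FPKM, after 742 FPKM at emergence and before 410, 396, 442 and 305 FPKM. The 24 h library thus held its lowest value. The largest upward steps were those of CPIJ009074 and CPIJ010034 out of their low 12 h values.

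From 24 to 36 h, 9 members were at least 2-fold lower and 1 was at least 2-fold higher, against 1.48% and 1.62% of 7858 genes. The 9 members are 5.59% of the group. Genes of at least 50 FPKM at 2 h, whatever their later course, were lower in 6.52% of 889 cases, a share near that of the members. The median change of the members was -0.41, the most negative of the 6 intervals in the deposited values, against -0.23 for genes within 2-fold of their 2 h value at 72 h and 0.0057 for all genes tested. After rescaling 5 members (3.11%) were at least 2-fold lower in this interval, against 1.22% of 7724 genes. Among genes of at least 50 FPKM at 2 h the rescaled share was 5.62%, above that of the members. The members' rescaled median was -0.32, against -0.60 and -0.51 in the 2 intervals before it. Which interval held the widest step thus depended on the scaling. CPIJ010341 had the largest downward step, with 285, 205 and 262 FPKM over the first 3 libraries, then 92.9, 78.9, 72.3 and 82.7 FPKM. Its 3 early libraries did not overlap with the 4 later ones. The gene was picked for this step, and the selection set its 2 h and 72 h values apart, so the gap is no separate observation.

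The largest upward steps from 24 to 36 h were those of CPIJ009879 and CPIJ013804. CPIJ009879 had, in order of time, 310, 158, 155, 356, 299, 340 and 143 FPKM. It returned to about its emergence level for 3 libraries, and its membership rests on the 72 h value. CPIJ013804 had 97.5, 132, 82.9, 158, 73.1, 132 and 35.9 FPKM, up and down at every step.

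Later steps were small. In the 3 intervals after 36 h, 1, 2 and 2 members (0.621%, 1.24% and 1.24%) were at least 2-fold lower, and no member was at least 2-fold higher. The lower shares were 0.593%, 0.507% and 0.869% of all genes tested. Among genes of at least 50 FPKM at 2 h they were 0.810%, 0.815% and 1.51%. The median changes were -0.11, -0.16 and 0.0032, against 0.18, -0.098 and 0.21 for all genes tested. With so few members each of these counts rests on 1 or 2 genes.

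**Figure D4:**
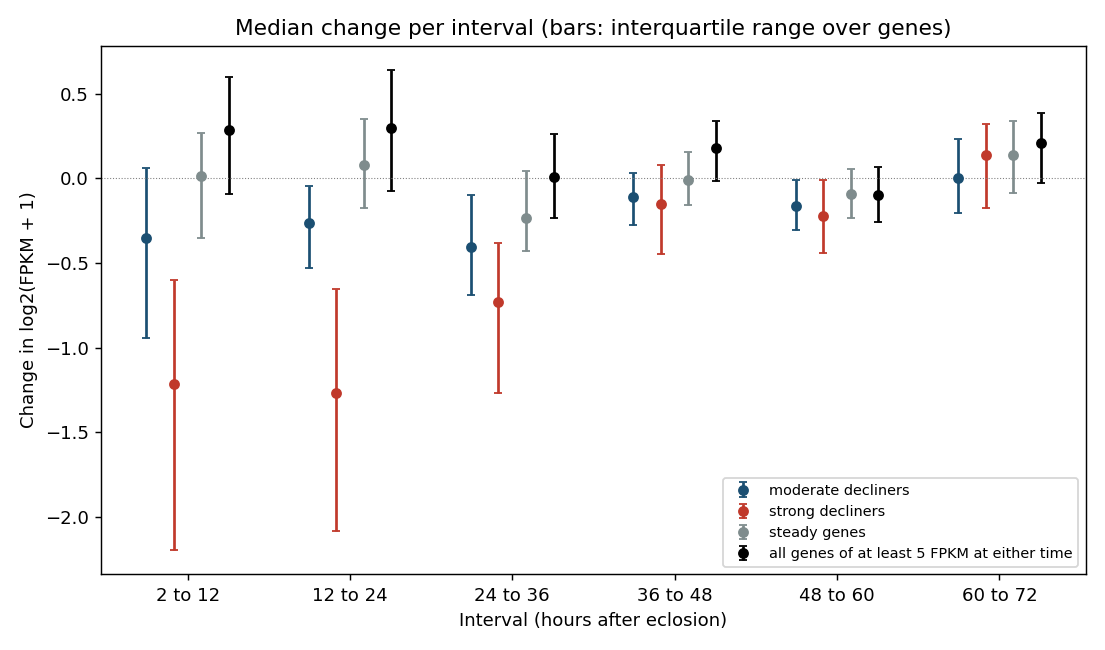
Median change in log2(FPKM + 1) in each of the 6 intervals, with bars for the interquartile range over genes, for the moderate decliners, the strong decliners, the steady genes and all genes counted in the interval. The moderate decliners lie below 0 in every interval up to 60 h, with -0.35, -0.27 and -0.41 in the first 3, and the strong decliners lie lower in these 3 intervals.

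The 5 libraries from 12 to 60 h did not enter the selection, and the slope was tested in them alone. They lie between the 2 h and 72 h libraries that chose the members, so a gradual course favours a falling slope. The excess of falling members over other genes is therefore not independent of the selection. Over these libraries 142 of the 161 members had a negative slope of log2(FPKM + 1) on time. So did 578 of the 914 genes of at least 50 FPKM at 2 h and 3462 of all 11837 genes tested. A lower value at 60 h than at 12 h was seen in 144 members (89.4%). The shares were 62.4% of genes of at least 50 FPKM at 2 h and 29.2% of the 8260 genes that reached 5 FPKM at either time. The slope passed limma's test (Benjamini-Hochberg adjusted p under 0.05 over the 11837 genes whose mean reached 1 FPKM) in 86 members that fell and in 2 that rose, and 73 did not pass. The members' 53.4% falling compares with 5.64% of all genes tested and with 29% of the genes of at least 50 FPKM at 2 h. The 1.24% rising compares with 20% and 11.5%. The median slope of the members was -0.51 per 24 h (interquartile range -0.72 to -0.24, median standard error 0.15), against 0.18 over all genes tested. Among the 86 that fell the slopes ran from -1.79 to -0.40, with a median of -0.71.

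The calls rest on few residual degrees of freedom. Without the 48 h library limma called 0 members (smallest adjusted p = 0.059; 94 members fell at an unadjusted p under 0.05, against 106 with all 5 libraries), and it called 0 of all 11837 genes falling in that fit. Without the 60 h library it called 45 falling members, against 3.07% of all genes tested. Leaving out the library at 12, 24 or 36 h gave 67, 92 and 69 falling members, against 4.78%, 6.29% and 4.28% of all genes tested. In each of these fits 139 to 144 members had a negative slope. Among the 914 genes of at least 50 FPKM at 2 h 542 to 627 did, and among all 11837 genes 2981 to 4499.

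The size of the change between the outer 2 of these libraries needs no fit, but it too lies between the libraries that chose the members. From 12 to 60 h, 88 of the 161 members were at least 2-fold lower and 4 at least 2-fold higher, or 54.7% and 2.48%, against 7.26% and 21.1% of 8260 genes tested. The median member differed by -1.04 on the log2 scale and the median gene tested by 0.41. After rescaling 97 members (60.2%) were at least 2-fold lower, against 8.91% of 8283 genes and 33.8% of those of at least 50 FPKM at 2 h. Lower at each of the 4 successive steps from 12 to 60 h were 59 members (36.6%), against 3.4% of the 11837 genes. At each of the 6 steps from 2 to 72 h 9 members were lower. The outer libraries of these steps chose the members, and the share over all genes was not computed.

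CPIJ009327 had the steepest falling slope, -1.79 ± 0.36 per 24 h (± standard error over 5 libraries; limma adjusted p = 0.015), but without the 12 h library its slope was -0.99 against -1.15 for CPIJ006209. CPIJ006209 followed with -1.13 ± 0.19 (limma adjusted p = 0.013), and CPIJ008101 had -0.92 ± 0.16 (limma adjusted p = 0.013). The 2 members that rose were CPIJ009879, 0.63 ± 0.19 (limma adjusted p = 0.047), and CPIJ014156, 0.56 ± 0.15 (limma adjusted p = 0.031). CPIJ014156 had, in order of time, 219, 41.1, 63.8, 76.1, 95.6, 89.7 and 101 FPKM. It was lowest at 12 h and regained part of its level afterwards. Neither rising call held without the 12 h library (adjusted p = 0.054 and 0.15).

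The calls followed the timing classes, which share libraries with the fit and so are not a separate observation. In the 36 h class 50 of 52 members fell, in the 48 h class 14 of 19, in the 24 h class 17 of 28 and in the 12 h class 4 of 56. Of the 19 members with a positive slope all were in the 12 h class, whose median slope was -0.16 per 24 h.

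**Figure D5:**
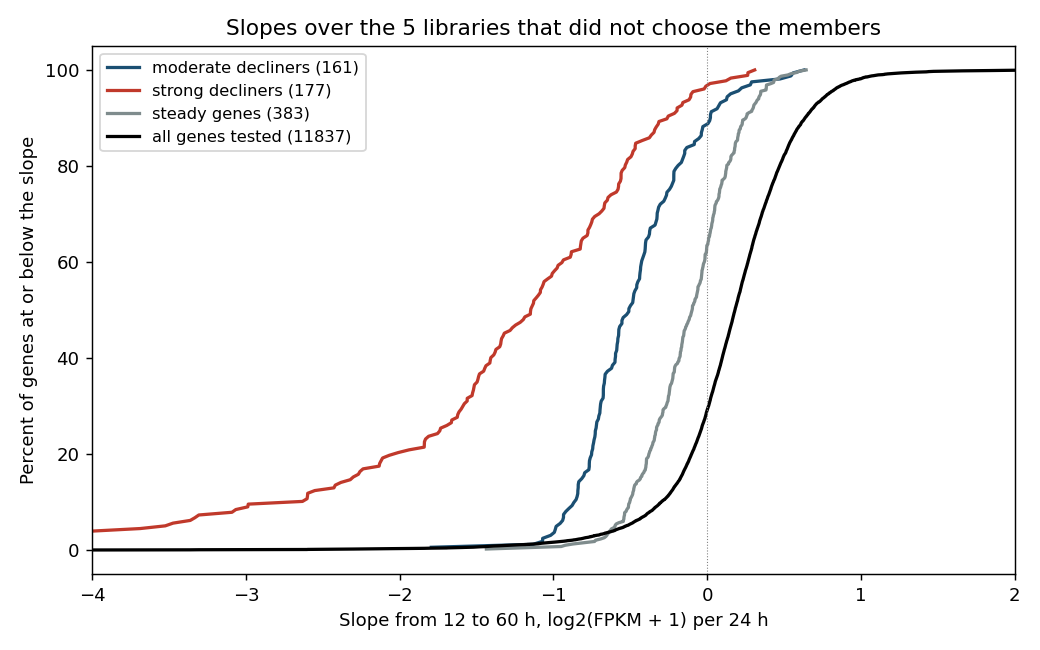
Cumulative percent of genes against the slope of log2(FPKM + 1) per 24 h over the libraries from 12 to 60 h, for the moderate decliners, the strong decliners, the steady genes and all genes tested; the steepest falling slopes lie beyond the left edge. The medians are -0.51 for the moderate decliners, -1.15 for the strong decliners, -0.10 for the steady genes and 0.18 for all genes tested.

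A pair of neighbouring sets with the same minimum of 50 FPKM at 2 h were placed beside the members. On the scale of FPKM + 1 these were 177 strong decliners, at least 4-fold lower at 72 h, and 383 steady genes, within 2-fold. The strong decliners had a median of 198 FPKM at 2 h and the steady genes one of 96.9 FPKM, with 155 FPKM for the members between them. The strong decliners held 34.3%, 21.0% and 6.17% of the FPKM sum in the first 3 libraries and 1.88% in the last. They thus lost most of their share by 24 h, when the members still held 11.1% against 14.9% at emergence. At 24 h the strong decliners had covered a median of 71.4% of their log2 difference and the members 48.1%. The steady genes held 15.9% in the first library, 16.5% in the 24 h library and 12.7% in the last. Over 12 to 60 h limma called 133 of the 177 strong decliners and 45 of the 383 steady genes falling, and the members' 86 of 161 lie between these. The sets were cut from the same 2 h and 72 h values, and the differences between them were not tested.

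The limits of the selection cut through a continuous range. The member with the lowest level at 2 h had 50.9 FPKM, and the gene just outside had 49.0 FPKM with a fall of 1.06. The smallest fall in the group was 1.002 and the largest one outside it was 0.999. The largest fall in the group was 1.99 and the smallest beyond it 2.003.

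Identifier numbers were compared as a feature the selection did not use. Of the 161 members 16 (9.94%) had another member at the next or previous number, in 8 pairs. The share was 32.2% of the 177 strong decliners, 14.9% of the 383 steady genes and 23.3% of all 914 genes with at least 50 FPKM at 2 h. A larger set has more chances of holding neighbours, these shares were not tested, and no genome position was used. In 7 of the 8 pairs both genes fell in the same timing class. The share of same-class pairs among members in general was not computed, so this count is no result about neighbours. An example is CPIJ007539 and the identifier before it, both of the 24 h class, which had 742 and 1126 FPKM at 2 h. In all, 5 members had a strong decliner at a neighbouring number.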

How the data were processed

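The authors made the deposited FPKM values with TopHat, Cufflinks and Cuffdiff, per the labels' design text; the header names no unit, and FPKM was inferred from that pipeline and from the values. CASAVA 1.8 and Trimmomatic are also in the submitters' processing notes. No build, annotation, strand setting or scaling between libraries is given in the sources used here. Depth is unknown in absolute terms, so no counting interval was computed. Values were analysed as log2(FPKM + 1), which understates the change of low genes. Between libraries a gene was counted at a log2 difference of at least 1, among genes that reached 5 FPKM in one or both. The slope on hours over the 12 to 60 h libraries was tested with limma 3.58.1 in R 4.3.3 on all genes whose mean reached 1 FPKM. The eBayes prior depended on the mean, 3 residual degrees of freedom were left, and p-values were Benjamini-Hochberg adjusted. The fit was tested on simulated data with independent noise about straight lines, so that run does not cover curvature. With 1 pool per time, the scatter about the line holds both noise and curvature. Other steps used Python 3.11.15 with pandas 2.3.3 and numpy 2.4.6. Alternatives were rescaling, a pseudocount of 0.1, other minimum values, log2 of hours and leaving out each library. Genes given by identifier were the 2 most abundant at 2 h, the 2 largest changes per direction from 2 to 12, 12 to 24 and 24 to 36 h, and the 2 steepest called slopes per direction. The genes nearest each limit of the selection are given by value. The members and these choices were made with earlier results of these data known.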

Additional observations from a re-analysis of the deposited data

How the results depend on the processing

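The selection itself depended on the scaling: rescaling by the median ratio gave 281 genes, of which 90 were members (55.9% of the members and 32.0% of the 281). A minimum of 20 FPKM at 2 h gave 283 genes and one of 100 FPKM gave 107. Of the members, limma called 86 falling over 12 to 60 h, and 0 to 92 when 1 library was left out, the 0 without the 48 h library. With no minimum 0 were called falling and 0 rising (smallest adjusted p = 0.071; 108 members at an unadjusted p under 0.05). That fit held 329 genes without variance and its prior had 1.73 degrees of freedom against 5.16. An alternative chosen after this was seen, genes above 0 in each of the 5 libraries, called 81 of the 86. Rescaling called 97, a pseudocount of 0.1 86, a mean of at least 10 FPKM 82 and log2 of hours 100. In the same order, 6.68%, 5.54%, 7.51% and 7.30% of all genes tested were called falling. Among genes of at least 50 FPKM at 2 h the shares were 33.4%, 28.9%, 26.6% and 34.8%. No member of the 86 took a positive slope in any of these fits, all of which share libraries with the calls. The 2 rising calls were 1 after rescaling, with a mean of at least 10 FPKM or with genes above 0 in each library, 0 to 1 without 1 library, and 3 on log2 of hours. The rising shares of all genes were 19.2% (rescaling), 15.1% (mean of at least 10 FPKM), 14.0% (genes above 0) and 29.1% (log2 of hours).

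After rescaling the members at least 2-fold lower numbered 55, 17, 5, 1, 1 and 4 in the 6 intervals in order of time. Those at least 2-fold higher numbered 2 from 24 to 36 h and 1 over 12 to 60 h. The median part of the decline reached became 29.7%, 58.1%, 76.9%, 88.1% and 91.3% in the libraries from 12 to 60 h. With a pseudocount of 0.1 it was 24.0% at 12 h and 87.4% at 48 h. Without their 10 most abundant genes the members held 8.89%, 8.03%, 5.95%, 4.73%, 3.86%, 3.47% and 2.95% of the libraries from 2 to 72 h. No paired analysis was possible because no time had a second library. The causes of these changes were not tested. Depth limits low values, and its absolute size is unknown. Its effect on the members, whose lowest value was 11.3 FPKM, was not tested.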

Other observations

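Of the 161 members 95 did not have their lowest value at the end of the series. The lowest of the 7 values lay in the 72 h library in 66 members, the 60 h library in 55, and those at 12, 24, 36 or 48 h in 11, 8, 10 and 11. The dips were shallow: 13 members had a lowest value at least 1.5-fold below that at 72 h, and in 3 the gap was 2-fold or more. After rescaling 89 members were lowest at 72 h and 37 at 60 h. The ratio used for rescaling was 1.02 at 60 h and 1.15 at 72 h, and its part in the position of the lowest value was not tested.

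Some members went up and down with each successive library, a pattern noticed in their values and then counted. Between 12 and 60 h, 13 of the 161 members (8.07%) were higher at 12, 36 and 60 h than at the neighbouring 24 and 48 h, against 6.23% of the 11837 genes whose mean reached 1 FPKM. Another 13 (8.07%) had the opposite pattern, against 21.6%. After rescaling 24 members (14.9%) and 12.6% of all genes had the first pattern and 5 members (3.11%) and 10.9% of all genes the second, so the counts depended on the scaling. The animals lived in a light-dark cycle of 12 h each, and the hour of emergence of each pool is unknown here. No test of phase was made on the members.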
